A study of Mus musculus with 9 samples.

Results

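The genes described here are the alpha and beta globin genes of the mouse, which encode the protein chains of haemoglobin. The family was chosen with earlier results of these data known. Its rows were taken by symbol alone, as every row of the expression tables whose gene symbol begins with Hba- or Hbb-. That gave 5 of 19454 listed genes. The alpha cluster gave 2, Hba-a1 and Hba-a2, and the beta cluster gave 3, Hbb-b1, Hbb-bt and Hbb-y. Other globin genes of these clusters, such as Hba-x, Hbb-bh1 and Hbq1a, were not analysed here.

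The libraries were made from haematopoietic stem cells (HSCs), the self-renewing cells of the marrow that give rise to all blood lineages, sorted from bone marrow of wild-type mice. RNA of 1500 sorted cells per library was copied into cDNA, enriched with 12 PCR cycles and sequenced, after red cells of the flushed marrow had been lysed in 0.16 M ammonium chloride. There were 3 groups of 3 libraries each. In the first group, called inhibition with spermidine here, the mPFC and PAG brain regions were inhibited by a chemogenetic method, in which a designed receptor lets a drug quieten the neurons that carry it, and the mice were given spermidine, a natural polyamine. In the second group, called inhibition, the same regions were inhibited and no spermidine is named. The control group has no brain intervention named in its labels. The names of the libraries with inhibition contain AAV, a virus used to carry genes, and those of control do not, so virus, drug and inhibition cannot be told apart. The labels give wild type as the genotype of all 3 groups and give no age, sex, sort markers, carrier promoter or receptor name. They do not say that the libraries of a group came from separate mice, so p-values measure only the spread between these libraries, which may be technical.

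Haemoglobin carries oxygen in red cells and is built from alpha-type and beta-type chains, each holding a haem group. Each gene cluster holds embryonic genes, used early in development, and adult genes, used from fetal life on. Erythroid precursors raise both clusters to very high levels under distant enhancers and the factors GATA1 and KLF1, and keep the chains in balance. Mature red cells of mammals have lost their nuclei, while young red cells, the reticulocytes, still hold globin mRNA.

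The adult alpha genes lie on the forward strand of chromosome 11 of mm10, Hba-a1 (ENSMUSG00000069919) at chr11:32283511-32284465 and Hba-a2 (ENSMUSG00000069917) at chr11:32296489-32297298. The beta genes lie on the reverse strand of chromosome 7. The row called Hbb-b1 (ENSMUSG00000052305) is at chr7:103826534-103828096, and GENCODE M21 names that identifier Hbb-bs. Hbb-bt (ENSMUSG00000073940), the second adult beta gene, is at chr7:103812524-103813996. Hbb-y (ENSMUSG00000052187), the embryonic epsilon-type beta gene, is at chr7:103851749-103853216. All 5 are annotated as protein coding with 3 exons in the transcript used.

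The adult copies of each cluster are nearly the same in sequence, which limits how far counts for single copies can be read. The coding sequences of Hba-a1 and Hba-a2, 426 bases each, differed at 1 base, C381T, counted from 1 at the A of the start codon. The coding sequences of Hbb-b1 and Hbb-bt, 441 bases each, also differed at 1 base, C417T. These stretches of 41 coding bases show the places where the copies can be told apart, with the differing base in capitals. They are from GENCODE M21 transcripts (mm10) and cover coding bases 361 to 401 of the alpha genes and 397 to 437 of the beta genes.
Hba-a2: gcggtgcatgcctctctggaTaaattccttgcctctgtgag
Hba-a1: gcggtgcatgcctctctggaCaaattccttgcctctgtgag
Hbb-b1: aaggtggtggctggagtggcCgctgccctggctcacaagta
Hbb-bt: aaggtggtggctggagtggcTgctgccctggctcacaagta

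Windows of 150 bases, the length of 1 read, show the consequence for counting. Of all such windows in the transcript, 65.7% for Hba-a2 and 48.4% for Hba-a1 were found without a mismatch in the other alpha copy. The shares were 58.7% for Hbb-b1 and 50.7% for Hbb-bt. Hbb-y differed from Hbb-b1 at 113 of 441 coding bases, shared 74.38% of them, and had 0 windows in common with it. In the deposited counts, each adult copy had a fractional count in 9 of 9 libraries, but the 2 alpha copies together, and the 2 adult beta copies together, came to a whole number within 0.01 in 9 of 9 libraries. Hbb-y had whole counts throughout. The split between copies is therefore an estimate, and the sum of a pair does not depend on it.

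The promoters are shown because 4 of the genes moved together in the values given next. Each line is the 150 bases before the RefSeq start of the gene (GRCm38.p6), read 5′ to 3′ on the gene's own strand. RefSeq and GENCODE place these starts differently. The windows of Hba-a1 and Hbb-b1 lie wholly within the GENCODE gene spans given above, and the other windows overlap theirs in part. Capitals mark the letters CACCC, the box CCAAT, the box TATAA and, in the gene that lacks it, the letters CATAAA, searched on both strands. The regions are chr11:32296342-32296491 for Hba-a2, chr11:32283522-32283671 for Hba-a1, chr7:103827929-103828078 for Hbb-b1 (Hbb-bs in RefSeq), chr7:103813924-103814073 for Hbb-bt and chr7:103853208-103853357 for Hbb-y.
Hba-a2: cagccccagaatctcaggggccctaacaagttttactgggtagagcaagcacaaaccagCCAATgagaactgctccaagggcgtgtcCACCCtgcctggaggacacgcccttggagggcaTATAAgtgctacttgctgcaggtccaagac
Hba-a1: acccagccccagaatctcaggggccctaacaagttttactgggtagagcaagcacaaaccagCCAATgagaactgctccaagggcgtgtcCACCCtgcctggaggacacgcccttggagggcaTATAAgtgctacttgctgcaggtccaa
Hbb-b1: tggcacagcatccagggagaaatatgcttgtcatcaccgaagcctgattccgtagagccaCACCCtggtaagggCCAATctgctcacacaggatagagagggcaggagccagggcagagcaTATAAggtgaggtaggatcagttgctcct
Hbb-bt: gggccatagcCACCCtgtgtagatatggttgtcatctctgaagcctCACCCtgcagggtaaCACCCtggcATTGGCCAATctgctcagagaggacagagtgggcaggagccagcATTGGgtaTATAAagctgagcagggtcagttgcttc
Hbb-y: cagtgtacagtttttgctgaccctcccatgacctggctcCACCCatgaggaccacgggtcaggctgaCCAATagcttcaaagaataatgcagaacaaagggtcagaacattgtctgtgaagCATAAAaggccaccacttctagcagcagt

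Hba-a2, Hba-a1 and Hbb-b1 each held 1 CACCC, 1 CCAAT and 1 TATAA. Hbb-bt held 3 CACCC, 3 CCAAT and 1 TATAA, and its forward CCAAT and a reverse one lie side by side in 1 run of capitals. Hbb-y held 1 CACCC, 1 CCAAT and 1 CATAAA, and no TATAA. KLF1 is known to bind a CACCC motif, NF-Y binds the CCAAT box, and TATAA is the core of a TATA box. Among 32851 mouse promoters in windows of the same length, 37.4% held CACCC, 24.5% CCAAT, 14.2% TATAA and 6.3% CATAAA. A search for GATAA, the core of GATA factor motifs found in 13.3% of promoters, matched none of the 5 windows. A match is a description of letters and does not show a bound factor. The alpha windows shared an unbroken run of 147 bases, whereas Hbb-b1 and Hbb-bt shared at most 14 bases in a row, Hba-a2 and Hbb-b1 at most 9, and Hbb-b1 and Hbb-y at most 6.

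Total counts per library were 16096276 to 25360256, and 14461 of 19454 genes had enough counts to be tested, among them 4 of the 5 globin genes. CPM is the count scaled to a common library total, after TMM scaling between libraries, and TPM is the authors' relative transcript abundance, corrected for length, which allows levels of different genes to be compared. Where a library has a count of 0, as many as 3 counts are allowed, a floor of 0.117 to 0.184 CPM that reflects counting error alone. In sorted bulk cells, fewer cells of a type and less RNA per cell cannot be told apart.

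Levels of the 4 adult globins fell in 1 order in 9 of 9 libraries on the TPM scale, Hba-a2 above Hba-a1, Hba-a1 above Hbb-b1 and Hbb-b1 above Hbb-bt. Hba-a2, an adult alpha chain gene, had 330.5, 334.2 and 354.1 TPM in inhibition with spermidine, 612.9, 654.7 and 663.6 TPM in inhibition, and 74.3, 80.0 and 84.4 TPM in control. Hba-a1, the other adult alpha gene, had 184.9, 190.2 and 195.6 TPM in inhibition with spermidine, 347.4, 340.4 and 358.8 TPM in inhibition, and 41.2, 42.6 and 37.1 TPM in control. All 3 groups stood apart for both genes, with inhibition highest and control lowest.

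Hbb-b1, the adult beta gene with the higher level, had 137.5, 133.8 and 137.9 TPM in inhibition with spermidine, 239.0, 245.7 and 226.6 TPM in inhibition, and 31.5, 31.5 and 32.3 TPM in control. Hbb-bt, the lower adult beta gene, had 28.4, 34.4 and 29.3 TPM in inhibition with spermidine, 50.8, 44.5 and 44.1 TPM in inhibition, and 5.16, 4.96 and 5.00 TPM in control. The groups did not overlap for either gene and came in the same order as for the alpha genes. Hbb-y had counts of 3, 1 and 0 in inhibition with spermidine, 0, 3 and 3 in inhibition, and 0, 0 and 1 in control. These counts are at or below the floor, so Hbb-y was not tested and no fold is given.

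In the ranking of 19454 listed genes by TPM, Hba-a2 stood at places 463 to 489 in inhibition with spermidine, 258 to 285 in inhibition and 1171 to 1259 in control. Hbb-bt stood at 2185 to 2446 in inhibition with spermidine, 1654 to 1787 in inhibition and 5260 to 5330 in control. Adult globin mRNA was thus measurable in all 9 libraries, control included.

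**Figure D1:**
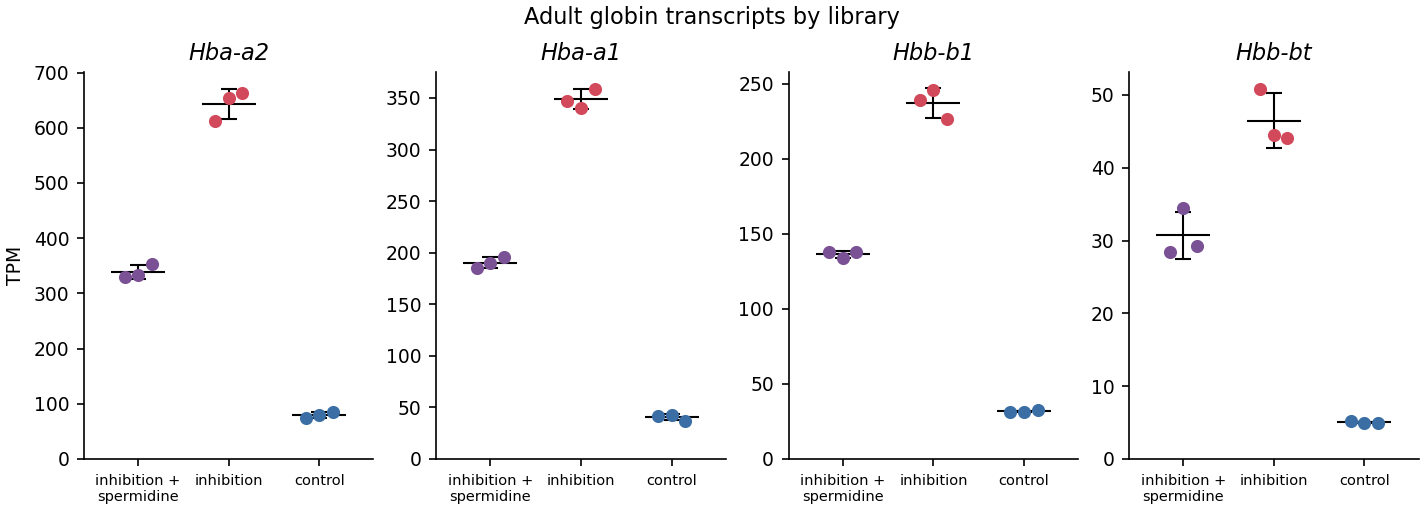
TPM of the 4 adult globin genes in each library, by group, with a point per library and the mean and SD of each group (n = 3); each panel has its own y axis, starting at 0. In each panel the inhibition libraries are highest, those with spermidine are between, and the control libraries are lowest, with Hba-a2 at 340 ± 12.7 TPM in inhibition with spermidine, 644 ± 27.1 TPM in inhibition and 79.6 ± 5.04 TPM in control.

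Inhibition was first set against control, which asks how globin transcripts differed when the brain regions were inhibited. All 4 tested globins were higher with inhibition. At an adjusted p under 0.05 the test called 36.2% of all genes higher and 36.1% lower, so 4 calls among 4 genes have to be read against calls for most of the genes measured. Hba-a2 had 327 ± 19.7 CPM in inhibition and 47.9 ± 1.92 CPM in control (SD, n = 3 each), a log2 fold change of 2.77 (SE 0.048, edgeR adjusted p = 8.42e-18). Hba-a1 had 177 ± 9.37 CPM in inhibition and 23.5 ± 2.08 CPM in control, a log2 fold change of 2.92 (SE 0.058, edgeR adjusted p = 4.66e-17). Hba-a2 and Hba-a1 were 6.83-fold and 7.54-fold higher.

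Hbb-b1 had 145 ± 2.95 CPM in inhibition and 22.2 ± 1.00 CPM in control, a log2 fold change of 2.70 (SE 0.043, edgeR adjusted p = 2.61e-18). Hbb-bt had 36.0 ± 2.40 CPM in inhibition and 4.41 ± 0.154 CPM in control, a log2 fold change of 3.02 (SE 0.096, edgeR adjusted p = 2.30e-14). Hbb-b1 and Hbb-bt were 6.52-fold and 8.11-fold higher. The median log2 fold change of all tested genes was 0.02, and between 3.32% and 4.02% of tested genes had a more positive change than each of the globins. For 4 of 4 globins each inhibition library was above each control library, as for 37.4% of tested genes, while 37.1% of tested genes had each inhibition library below.

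The second comparison, inhibition with spermidine against inhibition, asks what differed when spermidine was added. All 4 tested globins were lower with spermidine, where 28.9% of tested genes were called lower and 29.1% higher. Hba-a2 had 143 ± 5.42 CPM in inhibition with spermidine and 327 ± 19.7 CPM in inhibition, a log2 fold change of -1.20 (SE 0.043, edgeR adjusted p = 8.50e-13). Hba-a1 had 78.1 ± 3.32 CPM in inhibition with spermidine and 177 ± 9.37 CPM in inhibition, a log2 fold change of -1.18 (SE 0.049, edgeR adjusted p = 6.40e-12). The alpha genes therefore stood at 0.436 and 0.441 of their level with inhibition alone.

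Hbb-b1 had 67.8 ± 1.69 CPM in inhibition with spermidine and 145 ± 2.95 CPM in inhibition, a log2 fold change of -1.10 (SE 0.036, edgeR adjusted p = 3.16e-13). Hbb-bt had 19.5 ± 2.22 CPM in inhibition with spermidine and 36.0 ± 2.40 CPM in inhibition, a log2 fold change of -0.87 (SE 0.072, edgeR adjusted p = 3.53e-08). The change of Hbb-bt was the smallest of the 4, and its difference from the others was not tested. Between 2.19% and 4.18% of tested genes had a more negative change than each of the globins, and the median of all tested genes was 0.03. For 4 of 4 globins the libraries with spermidine lay below those without, as for 30.7% of tested genes, and 32.1% of tested genes had them above. Scaling by total count in place of TMM moved that median to 0.29, and the globin changes to between -0.94 and -0.61, still called lower.

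The third comparison, inhibition with spermidine against control, asks how far apart these groups remained. It shares its libraries with the other comparisons and is given for its own values. All 4 tested globins were higher with spermidine and inhibition than in control, where 41% of tested genes were called higher and 37.1% lower. The log2 fold changes were 1.57 (SE 0.049) for Hba-a2, 1.73 (SE 0.060) for Hba-a1, 1.61 (SE 0.044) for Hbb-b1 and 2.14 (SE 0.10) for Hbb-bt, with edgeR adjusted p between 3.64e-15 for Hbb-b1 and 6.41e-12 for Hbb-bt. The libraries of these groups did not overlap for 4 of 4 globins, higher with spermidine, as for 42.1% of tested genes, while 37.7% were lower without overlap. The median of all tested genes was 0.06. Hba-a2 had 143 ± 5.42 CPM in inhibition with spermidine and 47.9 ± 1.92 CPM in control, 2.98-fold higher.

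**Figure D2:**
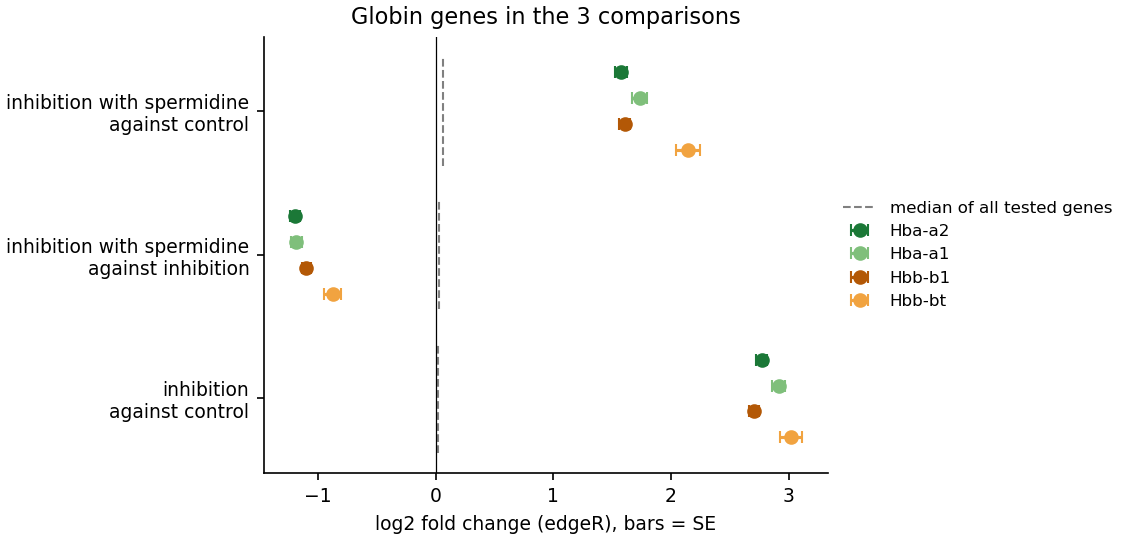
Log2 fold change of the 4 tested globin genes in the 3 comparisons, from edgeR; points are estimates and bars are standard errors. The changes lie between 2.70 and 3.02 for inhibition against control, between -1.20 and -0.87 for inhibition with spermidine against inhibition, and between 1.57 and 2.14 for inhibition with spermidine against control.

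Summed over the family, the globins took 334.3, 352.6 and 355.7 counts in each 1e6 counts in inhibition with spermidine, 624.3, 648.3 and 661.5 in inhibition, and 89.99, 92.8 and 93.7 in control. The groups did not overlap. The mean share in inhibition was 6.995 times that in control, and the mean share in inhibition with spermidine was 0.539 of that in inhibition and 3.77 times that in control. The summed TPM was 697 ± 18.04 in inhibition with spermidine, 1276 ± 23.0 in inhibition and 157 ± 3.96 in control (SD, n = 3 each). On that scale inhibition was 8.14 times control, and inhibition with spermidine was 4.45 times control. The sums have no test of their own.

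The balance between the chains changed little beside the change in level. The ratio of alpha to beta TPM was 3.10, 3.11 and 3.29 in inhibition with spermidine, 3.31, 3.43 and 3.77 in inhibition, and 3.16, 3.36 and 3.25 in control. The ratio in inhibition lay above that in inhibition with spermidine in 3 of 3 libraries, and overlapped control. Fitted with the copies of a cluster summed, so that their split plays no part, the alpha pair had a log2 fold change of 2.82 (SE 0.044) and the beta pair 2.76 (SE 0.040) for inhibition against control. For inhibition with spermidine against inhibition the alpha pair had -1.19 (SE 0.039) and the beta pair -1.05 (SE 0.034). For inhibition with spermidine against control the alpha pair had 1.63 (SE 0.044) and the beta pair 1.71 (SE 0.041).

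Within the pairs, the share of alpha TPM assigned to Hba-a2 was 63.7% to 64.4% in inhibition with spermidine, 63.8% to 65.8% in inhibition and 64.3% to 69.4% in control, with overlap between the groups. The share of adult and embryonic beta TPM assigned to Hbb-bt was 17.1%, 20.5% and 17.5% in inhibition with spermidine, 17.5%, 15.3% and 16.3% in inhibition, and 14.1%, 13.6% and 13.4% in control. The control shares of Hbb-bt lay below those of the other groups. The split between these copies was estimated by the authors' processing, and this difference is given as a value with no test.

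**Figure D3:**
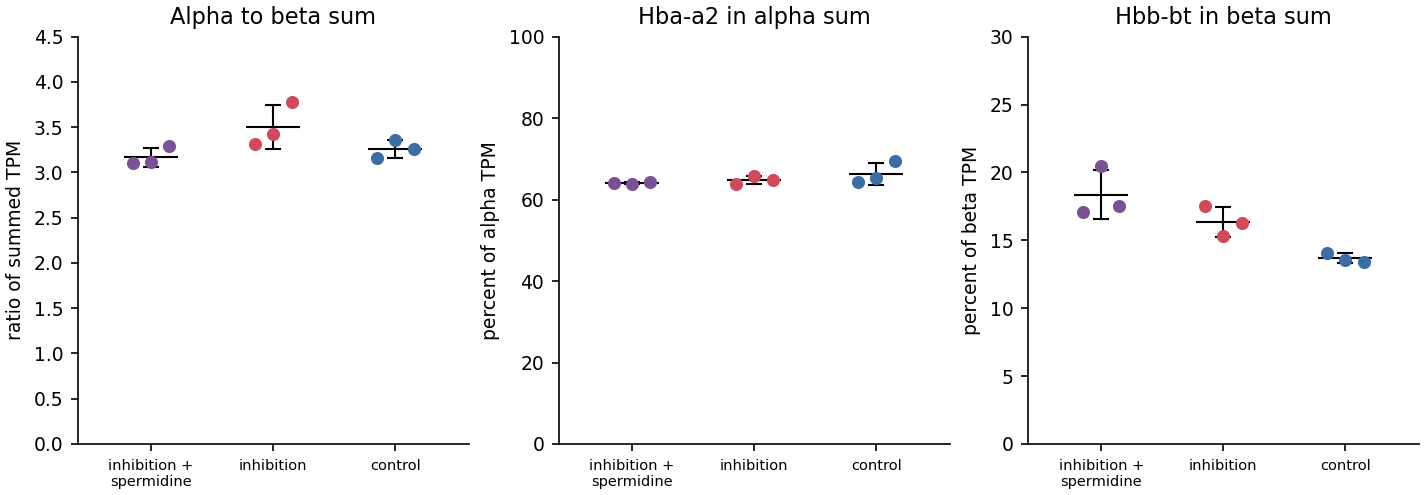
The ratio of alpha to beta TPM, the percentage of alpha TPM assigned to Hba-a2 and the percentage of beta TPM assigned to Hbb-bt, with a point per library and the mean and SD of each group (n = 3). The first 2 panels show overlap between inhibition and control, while the control libraries lie lowest for Hbb-bt, at 14.1%, 13.6% and 13.4%. The y axis of each panel starts at 0.

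Other genes of red cell formation did not move with the globins as a group. Proteins of the red cell membrane were mostly lower with inhibition than in control. Of 16 tested genes, 1 was higher, 13 were lower and 2 were not called, beside 36.2% higher and 36.1% lower over all tested genes. Their median log2 fold change was -1.95, against 0.02 for all tested genes. Their summed TPM was 32.7 to 34.9 in inhibition with spermidine, 27.2 to 30.3 in inhibition and 138 to 142 in control. Ermap and Rhd, red cell surface proteins that carry blood group antigens in humans, had log2 fold changes of -3.57 (SE 0.12) and -2.92 (SE 0.077) for inhibition against control, and Icam4, an adhesion protein of red cells, had -2.66 (SE 0.065). Epb41 had a smaller change, -0.38 (SE 0.079), and Gypc was not called, at -0.09 (SE 0.077).

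The 1 membrane gene called higher was Slc4a1, the anion exchanger band 3. It had counts of 16, 20 and 11 in inhibition with spermidine, 11, 15 and 16 in inhibition, and 3, 7 and 2 in control. The log2 fold change for inhibition against control was 1.64 (SE 0.42, edgeR adjusted p = 0.00232), from few counts. On the TPM scale Slc4a1 had 0.109, 0.0998 and 0.126 in inhibition and 0.114, 0.0560 and 0.0156 in control, and the groups overlapped. Against inhibition, inhibition with spermidine was at -0.02 (SE 0.32) and did not pass the test.

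Of 13 tested genes of haem synthesis and iron supply, 5 were higher and 8 lower with inhibition than in control, with a median log2 fold change of -0.50. The shares over all tested genes were 36.2% higher and 36.1% lower, so the count of higher genes was near the background. Alas2, the erythroid first enzyme of haem synthesis, had 2.09, 2.42 and 2.30 TPM in inhibition with spermidine, 2.66, 2.11 and 2.74 TPM in inhibition, and 0.0788, 0.266 and 0.374 TPM in control. Control was lowest, as for the globins, with a log2 fold change of 2.62 (SE 0.29, edgeR adjusted p = 4.21e-07) for inhibition against control. Between inhibition with spermidine and inhibition, Alas2 had -0.67 (SE 0.21, edgeR adjusted p = 0.0133), and that call was lost with total-count scaling (-0.41), with limma on log2 TPM (-0.13 and -0.09) and without replicate 1 of inhibition with spermidine (-0.60). Alas1, the form of that enzyme used in most tissues, had a log2 fold change of 1.31 (SE 0.046) for inhibition against control, and Abcb10, a mitochondrial transporter needed for haem synthesis, 4.03 (SE 0.069). Cpox, a late enzyme of the pathway, had 34.7, 34.4 and 31.5 TPM in inhibition with spermidine, 34.5, 36.4 and 34.1 TPM in inhibition, and 210.1, 217 and 201 TPM in control. Its log2 fold change for inhibition against control was -2.73 (SE 0.041).

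Of 15 tested red cell enzymes and maturation genes, 2 were higher, 11 lower and 2 not called with inhibition against control, with a median of -1.20, beside 36.2% higher and 36.1% lower over all tested genes. Car1, a carbonic anhydrase of red cells and their precursors, had 26.02 ± 0.252 CPM in inhibition with spermidine, 29.7 ± 0.344 CPM in inhibition and 1597 ± 18.5 CPM in control (SD, n = 3 each). Car1 had a log2 fold change of -5.75 (SE 0.033, edgeR adjusted p = 5.52e-24) for inhibition against control. Blvrb, a flavin and biliverdin reductase of red cells, had -2.81 (SE 0.049), and Car2, another carbonic anhydrase, -1.24 (SE 0.027). Smaller changes were those of Prdx2 at -0.23 (SE 0.031), Bnip3l at -0.15 (SE 0.028) and Cat at -0.15 (SE 0.043). The alpha chain chaperone Ahsp was not analysed here.

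Of 23 tested regulators of globin genes, 3 were higher with inhibition than in control, 15 lower and 5 not called, with a median of -0.47. Over all tested genes 36.2% were higher and 36.1% lower, with a median of 0.02. Klf1, the erythroid activator of the adult beta gene, had 1.33, 1.16 and 1.56 TPM in inhibition with spermidine, 2.46, 2.47 and 3.53 TPM in inhibition, and 37.9, 40.5 and 41.4 TPM in control. Klf1 was highest in control, where the globins were lowest, and the groups did not overlap. Its log2 fold change was -3.94 (SE 0.090, edgeR adjusted p = 2.84e-16) for inhibition against control and -1.41 (SE 0.16, edgeR adjusted p = 1.90e-06) for inhibition with spermidine against inhibition. Epor, the erythropoietin receptor, had 0.230, 0.470 and 0.316 TPM in inhibition with spermidine, 0.253, 0.190 and 0.276 TPM in inhibition, and 4.58, 4.31 and 4.72 TPM in control. Epor had a log2 fold change of -4.26 (SE 0.20, edgeR adjusted p = 3.31e-12) for inhibition against control, and 0.22 (SE 0.33), not called, for inhibition with spermidine against inhibition.

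Lmo2 and Cbfa2t3, cofactors in GATA1 complexes, had log2 fold changes of -0.47 (SE 0.031) and -0.49 (SE 0.039) for inhibition against control. Bcl11a, a repressor of embryonic-type beta globin genes, had -0.31 (SE 0.047). Ikzf1, a lymphoid and haematopoietic factor, had 0.20 (SE 0.047), and the sign turned to -0.57 and -0.62 with limma on log2 TPM. Myb, a factor of immature precursors, had -0.03 (SE 0.052) and was not called.

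**Figure D4:**
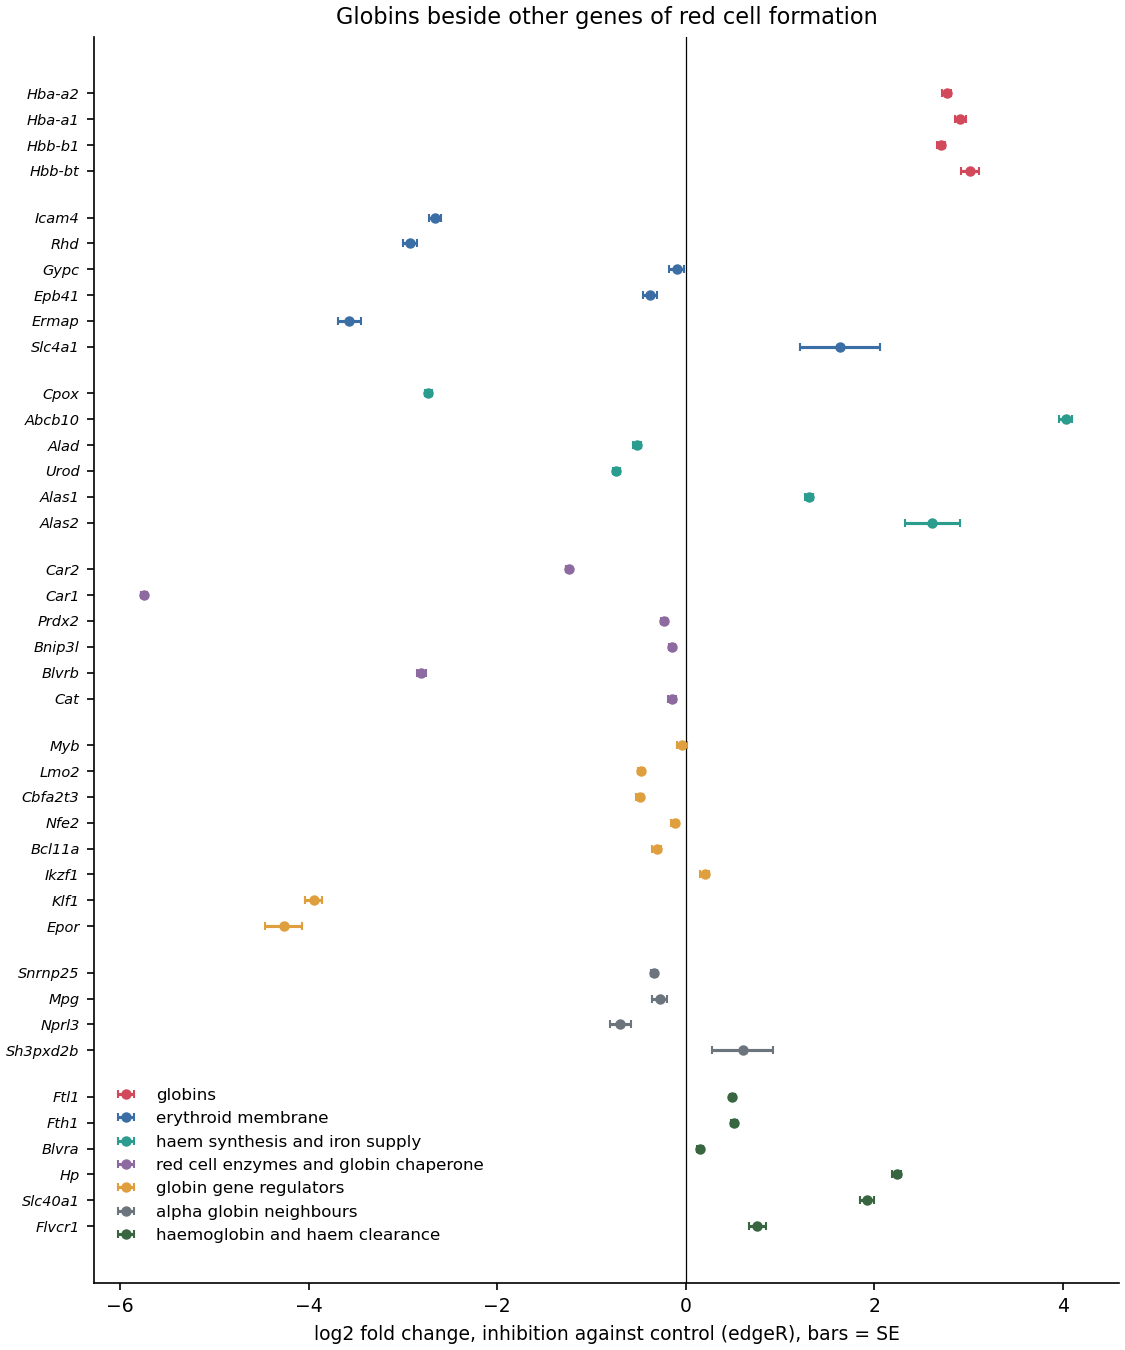
Log2 fold change for inhibition against control of the globins and of named genes in 6 lists on red cell formation, globin regulation, the alpha cluster's neighbours and haemoglobin clearance; points are edgeR estimates and bars are standard errors. The 4 globins lie between 2.70 and 3.02, while genes such as Car1 (-5.75), Epor (-4.26) and Klf1 (-3.94) lie on the other side of 0.

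Of 8 named neighbours of the alpha genes 4 were tested, and 0 were higher, 3 lower and 1 not called with inhibition against control. With 36.2% of all tested genes higher and 36.1% lower, nothing particular to the neighbours can be read from 4 genes. Nprl3, whose introns hold the alpha globin enhancers, had a log2 fold change of -0.69 (SE 0.11), Snrnp25, a splicing protein gene, -0.34 (SE 0.032), and Mpg, a DNA repair glycosylase, -0.28 (SE 0.080). The calls for Nprl3 and Mpg were lost with limma on log2 TPM, at -0.23 for Nprl3 with a pseudocount of 1 and -0.09 and -0.10 for Mpg. Hbq1b, a theta-type globin between Hba-a1 and Hba-a2, had too few counts to test, with 8, 3.63 and 8.93 in inhibition with spermidine, 4, 9 and 12 in inhibition, and 1, 2 and 0 in control. Its inhibition libraries were above its control libraries at these few counts, as were those of 37.4% of tested genes, and no change is read from it. Within 200 kb of the beta genes, 31 of 39 annotated neighbours are olfactory receptor genes, and 22 of them had a row; no neighbour of the beta genes is given a test here. Adgb, androglobin, the only other globin tested, was not called, at -0.25 (SE 0.40).

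In inhibition with spermidine against inhibition, the red cell lists had calls in both directions, beside 29.1% higher and 28.9% lower over all tested genes. The membrane list had 2 higher and 3 lower of 16 tested, with a median of 0.12. The haem list had 3 higher and 6 lower of 13, with a median of -0.07, the enzyme list 4 higher and 3 lower of 15, with a median of -0.05, and the regulator list 8 higher and 3 lower of 23, with a median of 0.22. For inhibition with spermidine against control, the membrane list had 1 higher and 12 lower, with a median of -2.31, and the regulator list 4 higher and 14 lower, with a median of -0.29, beside 41% higher and 37.1% lower over all tested genes.

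Of 11 tested genes whose products bind free haemoglobin or handle haem and iron, 8 were higher with inhibition than in control, 2 lower and 1 not called, with a median of 0.51. Over all tested genes 36.2% were higher and 36.1% lower, with a median of 0.02. Hp, haptoglobin, which binds free haemoglobin, had 130 ± 6.56 CPM in inhibition and 27.7 ± 1.67 CPM in control (SD, n = 3 each), a log2 fold change of 2.24 (SE 0.050, edgeR adjusted p = 2.23e-16). Slc40a1, the iron exporter ferroportin, had 1.92 (SE 0.075). The ferritin chains Fth1 and Ftl1, which store iron, had 0.51 (SE 0.031) and 0.50 (SE 0.030). The 2 lower genes were Cd163, at -0.64 (SE 0.14), and Spic, at -1.03 (SE 0.26), and these 2 are named because of their values. With spermidine added to inhibition, 2 of the 11 were higher and 5 lower, with a median of -0.35, beside 29.1% higher and 28.9% lower over all tested genes. Neutrophils also make haptoglobin and ferritins.

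Neutrophil granule genes had the group order of the globins, while the summed erythroid markers did not. Summed TPM of 10 erythroid markers, 9 of them with a row and none at 0, was 12.0 to 13.4 in inhibition with spermidine, 14.4 to 16.5 in inhibition and 62.3 to 65.3 in control, so it was highest where globins were lowest. Of 15 neutrophil granule genes, 15 were higher with inhibition than in control and 15 lower with spermidine than with inhibition alone, beside 36.2% higher and 28.9% lower over all tested genes in those comparisons. Their summed TPM was 36359 to 37061 in inhibition with spermidine, 84211 to 84847 in inhibition and 6057 to 6286 in control. S100a8, a calcium-binding protein abundant in neutrophils, had log2 fold changes of 4.73 (SE 0.031) for inhibition against control and -1.70 (SE 0.027) for inhibition with spermidine against inhibition.

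Of 8 tested B and plasma cell genes, 8 were higher with inhibition than in control, beside 36.2% over all tested genes. For inhibition with spermidine against inhibition 6 were lower and 2, Sdc1 and Ms4a1, were not called, beside 28.9% lower over all tested genes. Of the 6, Cd79b went the other way on the TPM scale, with 55.3, 58.1 and 58.1 TPM in inhibition with spermidine and 49.4, 50.1 and 51.0 TPM in inhibition. These 3 genes are named because of their values. The summed TPM of the 9 genes of the list was 2979 to 3190 in inhibition with spermidine, 6271 to 7111 in inhibition and 45.1 to 46.6 in control, and in both inhibition groups it was mostly Igkc. Igkc, the kappa light chain constant gene, had 2765, 2786 and 2964 TPM in inhibition with spermidine, 6418, 5889 and 6720 TPM in inhibition, and 6.18, 7.26 and 5.54 TPM in control. Igkc had log2 fold changes of 9.79 (SE 0.069) for inhibition against control and -1.45 (SE 0.041) for inhibition with spermidine against inhibition. Marrow macrophages take up the nuclei of red cell precursors. Their 5 defining markers, none at 0, summed to 7.19 to 7.61 TPM in inhibition with spermidine, 8.96 to 9.26 TPM in inhibition and 2.75 to 3.12 TPM in control. Over a longer list of 9 macrophage genes the sums were 11.2 to 12.1 TPM in inhibition with spermidine, 14.1 to 14.4 TPM in inhibition and 19.1 to 21.4 TPM in control. Of its 7 tested genes, 5 were higher with inhibition than in control, 1 lower and 1 not called, beside 36.2% higher and 36.1% lower over all tested genes. The lower gene was Siglec1, which made up most of the control sum. Siglec1 had 18.2, 17.6 and 15.7 TPM in control and 3.43, 3.44 and 3.71 TPM in inhibition. Megakaryocyte and platelet markers summed to 221 to 230 TPM in inhibition with spermidine, 186 to 195 TPM in inhibition and 3889 to 4168 TPM in control. The 8 HSC markers, which check the label of the cells, summed to 170 to 177 TPM in inhibition with spermidine, 104 to 111 TPM in inhibition and 35.3 to 38.4 TPM in control. Fgd5 was at 0 in a control library. The markers did not all follow their sum. Slamf1 went the other way, with a mean of 2.80 TPM in each inhibition group and 14.5 TPM in control. Kit was called lower with inhibition than in control in the fit to counts, with a log2 fold change of -0.25 (SE 0.044). On the TPM scale Kit followed the sum, with means of 12.1 in inhibition with spermidine, 7.85 in inhibition and 6.71 in control. Slamf1 and Kit are named because of their values. The part of these cells in the globin values was not tested.

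The genes whose pattern over the 9 libraries was closest to the summed globins were found among 8488 tested genes with a mean of at least 5 CPM. Closeness was the Euclidean distance between log2 CPM values centred on each gene's mean. The 8 closest were Dmkn (0.147), Pglyrp1 (0.230), S100a6 (0.246), Sorl1 (0.322), Sgms2 (0.378), Clec5a (0.386), Prom1 (0.387) and Gda (0.398). On the same measure Hba-a2, which is part of the sum, was at 0.124, Hbb-b1 at 0.197, Hba-a1 at 0.244 and Hbb-bt at 0.640.

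Dmkn, dermokine, a secreted protein known from skin, had 167, 177 and 172 TPM in inhibition with spermidine, 329, 314 and 330 TPM in inhibition, and 39.8, 40.7 and 40.8 TPM in control. Pglyrp1, a bactericidal protein of neutrophil granules, had 521, 535 and 545 TPM in inhibition with spermidine, 986, 1000 and 985 TPM in inhibition, and 111, 115 and 108 TPM in control. Both had the group order of the globins with no overlap. The log2 fold changes of the 8 genes ran between 2.61 for Gda, guanine deaminase, and 2.97 for Pglyrp1 in inhibition against control, and between -1.43 for Clec5a, a myeloid surface receptor, and -0.86 for Gda in inhibition with spermidine against inhibition.

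**Figure D5:**
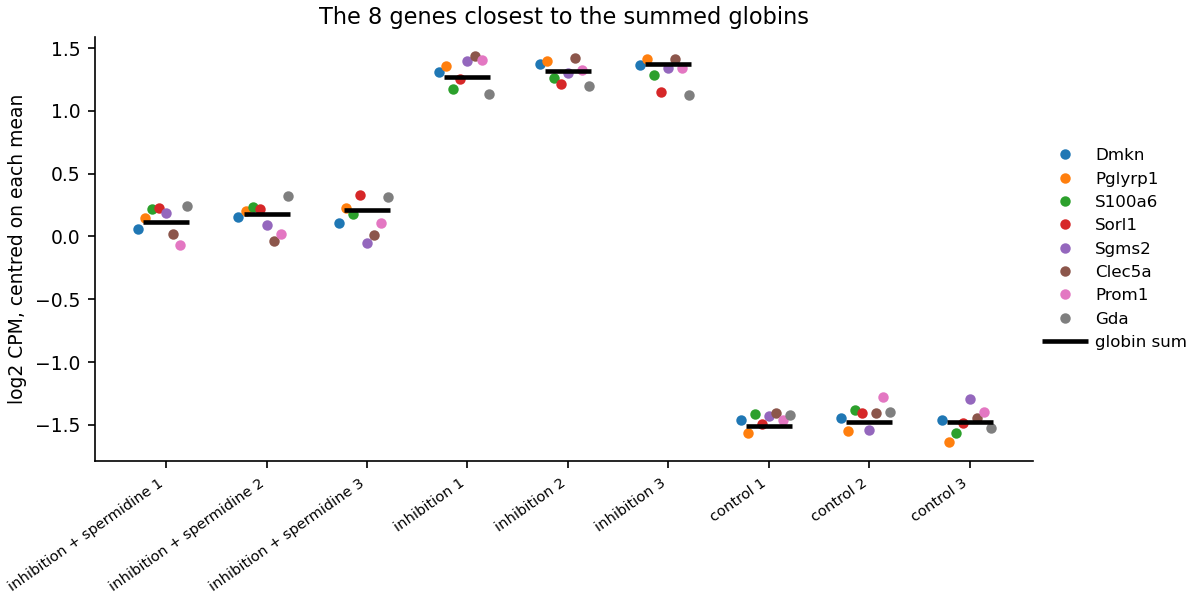
Log2 CPM, centred on each gene's mean over the 9 libraries, of the summed globins (black bars) and of the 8 tested genes closest to them (coloured points), for each library. The points follow the bars in each group, with distances over the 9 libraries of 0.147 for Dmkn to 0.398 for Gda; these genes were picked for that likeness.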

How the data were processed

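The authors deposited estimated counts per gene and TPM for 9 libraries. Tools named in the submitters' processing notes, with no role given, are HTSeq 0.10.0, STAR 2.6.1d, edgeR 3.24.3 and Trim Galore 0.6.2, with mm10 as build. Of the deposited estimated counts, 48.2% are whole. TPM is scaled for length and depth by the authors, and its effective lengths moved by -0.16 to -0.09 (log2) for the globins between inhibition and control.

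Estimated counts were rounded and fitted in R 4.3.3 with edgeR 4.0.16, using the quasi-likelihood test on 9 libraries in 1 fit with TMM factors (0.931 to 1.14), the default low-count filter and Benjamini-Hochberg adjustment over 14461 genes at a threshold of 0.05. The SE is the log2 fold change divided by the root of F. The script was tested on simulated data. With 3 libraries against 3 an exact permutation test cannot go below 0.1, so none was used. Alternatives used DESeq2 1.42.0, limma 3.58.1, other scaling, no filter, 2-group fits, summed copies and each library left out.

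Same-numbered libraries had residual correlations of -0.0533 to 0.0748 over 9 pairs, so they showed no strong shared effect. These correlations cannot show that same-numbered libraries were handled separately. Within groups, libraries differed by more than counting noise (mean chi-squared per gene 2.45 to 7.75).

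The globin genes and the gene lists were chosen with earlier results of these data known. Every globin row is named, with up to 6 members of each red cell list by mean CPM, defining genes (Slc4a1, Alas2, Klf1, Epor), 2 of each other-cell list, and the 8 closest genes; some results are not reported here. Coordinates and transcripts are from GENCODE M21 (mm10) and promoters from RefSeq (GRCm38.p6); 5 of 5 globin genes matched.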

Additional observations from a re-analysis of the deposited data

How the results depend on the processing

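The direction and call of the 4 globins held in all 3 comparisons under 204 of 204 alternatives for single genes (17 for each gene and comparison). The log2 fold changes ranged from 2.66 to 3.18 for inhibition against control, from -1.27 to -0.58 for inhibition with spermidine against inhibition, and from 1.52 to 2.58 for inhibition with spermidine against control. With any 1 library left out, 4 globins were called in each comparison. With the copies summed to a row per cluster, 2 of 2 features were called in each comparison, fewer because 4 rows became 2. The replicate block also left 4 of 4 called in each comparison, with Hba-a2 at 2.77, -1.20 and 1.58. Same-numbered libraries showed no strong shared effect. The family sum in TPM in place of counts moved the ratio to 8.14 for inhibition against control and to 4.45 for inhibition with spermidine against control; leaving out a library gave 6.90 to 7.11, 0.531 to 0.549 and 3.73 to 3.84 for the 3 ratios of the count share, in the order of the comparisons above.

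Scaling by total count changed the calls over all genes to 7711 higher and 1793 lower for inhibition with spermidine against inhibition, where TMM gave 4213 and 4183, and to 7705 and 3682 for inhibition with spermidine against control, where TMM gave 5930 and 5363. For 87 values of other genes, 1441 of 1469 alternatives left direction and call as they were, 12 lost the call, 3 gained it and 13 turned the sign. The sign turned for inhibition against control with limma on log2 TPM (pseudocounts 1 and 0.1) for Myb (0.0909 and 0.0926), Nfe2 (0.0920 and 0.0948) and Ikzf1 (-0.57 and -0.62), without inhibition replicate 3 for Myb (range -0.0979 to 0.0105 over the libraries left out) and without control replicate 1 for Adgb (range -0.564 to 0.0833). For inhibition with spermidine against inhibition it turned for Slc4a1 with total-count scaling (0.235), without inhibition replicate 3 and without replicate 1 or 3 of inhibition with spermidine (range -0.151 to 0.0777), and for Epor without replicate 2 of that group (range -0.146 to 0.454). The causes were not tested. Genes at few counts, such as Slc4a1, Epor in both inhibition groups and Hbb-y, are limited by depth.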
